A study of Mus musculus with 8 samples.

Results

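The 37 genes described here make DNA replication run and supply its nucleotides. They were chosen by symbol for their known roles and not by a measured value, though with earlier results of these data known. All 37 were found among the 55335 genes of the files. RNA was sequenced from material sorted as CD8 T cells out of B16 tumours, 14 days after intravenous injection of the tumour cells. B16 is a mouse melanoma line. The tumours grew in CD36 KO mice on a C57BL/6 background or in wild-type C57BL/6 mice, so by the labels the knockout is carried by the host and not by the injected line, and Cd36 encodes a scavenger receptor for fatty acids and oxidised lipoproteins. Each genotype has 4 deposited samples, titled as lanes 1 to 4 of the same library number, so each genotype is 1 library here, called CD36_KO and WT. The sources used here do not give the number of animals behind a library, the sorting gate or the Cd36 allele.

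Replication starts when origins are licensed in G1: Cdc6 and Cdt1 load the ring-shaped Mcm2 to Mcm7 helicase onto DNA. In S phase Cdc45 and the GINS complex switch the helicase on, primase and the polymerases copy both strands, and PCNA, loaded by RFC, clamps the polymerases to the template. Deoxynucleotides come from ribonucleotide reductase, thymidylate synthase and thymidine kinase. Many of these genes are driven by E2F transcription factors once RB is inactivated, so their RNA is commonly read as a sign of cycling cells. In a tumour, activated T cells and tumour cells both cycle.

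The libraries held 10363391 (CD36_KO) and 10071960 (WT) estimated counts, with 2497048 to 2611740 per lane. Cd36 itself stood at 10.2 ± 1.01 TPM in the CD36_KO lanes and 25.5 ± 2.49 TPM in the WT lanes (SD over 4 lanes of 1 library; TPM is transcripts per 1000000, scaled for length). The sorted material did not look like T cells alone. Dct, of the melanin pathway, reached 104 ± 2.36 TPM in CD36_KO and 324 ± 10.5 TPM in WT, beside the CD8 chain gene Cd8a at 59.0 ± 1.17 TPM and 10.6 ± 0.485 TPM. Lyz2, the macrophage lysozyme, stood at 1520 and 1316 TPM. All 12 melanoma markers were at least 2-fold lower in CD36_KO and all 12 genes of the CD8 T cell list at least 2-fold higher. That list holds Cd8a and Cd8b1 beside genes such as Cd3e and Trac, which other T cells also express. Summed melanoma levels ran from 358 to 366 TPM over the CD36_KO lanes and from 1078 to 1155 TPM over the WT lanes. Those of the CD8 T cell list ran from 721 to 789 and from 146 to 162 TPM. Of 12 macrophage and monocyte markers 3 were lower and 0 higher, with sums of 1976 to 2032 TPM in CD36_KO and 1912 to 2022 TPM in WT. None of the 36 markers in these 3 lists was at 0 in either library. The part that this mixture plays in the results below was not tested, and fewer cycling cells and less replication RNA per cell cannot be told apart in bulk RNA.

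Replication genes were on the whole lower in the CD36_KO library, but most by less than 2-fold. Of the 37 genes, 36 reached a mean of 5 CPM (counts per 1000000 of the TMM-scaled library) and were counted as measured. By the rule used throughout, a log2 ratio of at least 1 in size with a 95% counting interval that excludes 0, 11 of the 36 were lower, 0 were higher and 25 lay between. Of the genes called lower, Cdc6 and Rfc3 lay under 5 CPM in CD36_KO and were measured only through WT. Among all 12177 measured genes 10.8% were lower and 6.5% higher by this rule. The median log2 ratio of the 36 genes was -0.78 (CD36_KO over WT), against -0.13 for all measured genes. Single values ran from -2.06 (Cdc6) to 0.17 (Rfc1), 34 of the 36 were negative, and 31 had intervals wholly below 0, as 40.7% of all measured genes did. In 27 of the 36 every CD36_KO lane lay below every WT lane, as in 33.3% of all measured genes, in 9 the lanes overlapped, and in 0 they lay above, as they did in 19.6% of all measured genes. Since each genotype is 1 library, the differences have no replicate check, and no p-value is given. Intervals cover counting error only and treat reads as independent molecules, which reads without molecular identifiers are not.

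The size of the decrease depended on the scale, while the place of the group below the bulk of genes did not. With total counts in place of TMM scaling the median was -0.58, against 0.06 for all measured genes, and 6 of 36 genes (16.7%) were at least 2-fold lower and 0 higher, against 7.83% and 8.93% of all. On the log2(TPM + 1) scale, which corrects for transcript length, the median was -0.17, against 0.37 for all measured genes, with 21 genes negative and 15 positive. There 2 of 36 (5.56%) were at least 2-fold lower, against 2.7% of all, and 0 were higher, against 12.3%. Taken from the median of all measured genes on the same scale, the group lay at -0.65 (TMM and total counts) or -0.54 (TPM). TMM scaling and total counts differ only by a factor common to all genes of a library. Their values relative to that median are therefore the same by construction, and only TPM is a separate look. Of the 36 genes, 34 lay below that median with TMM scaling or total counts, and 30 with TPM.

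**Figure D1:**
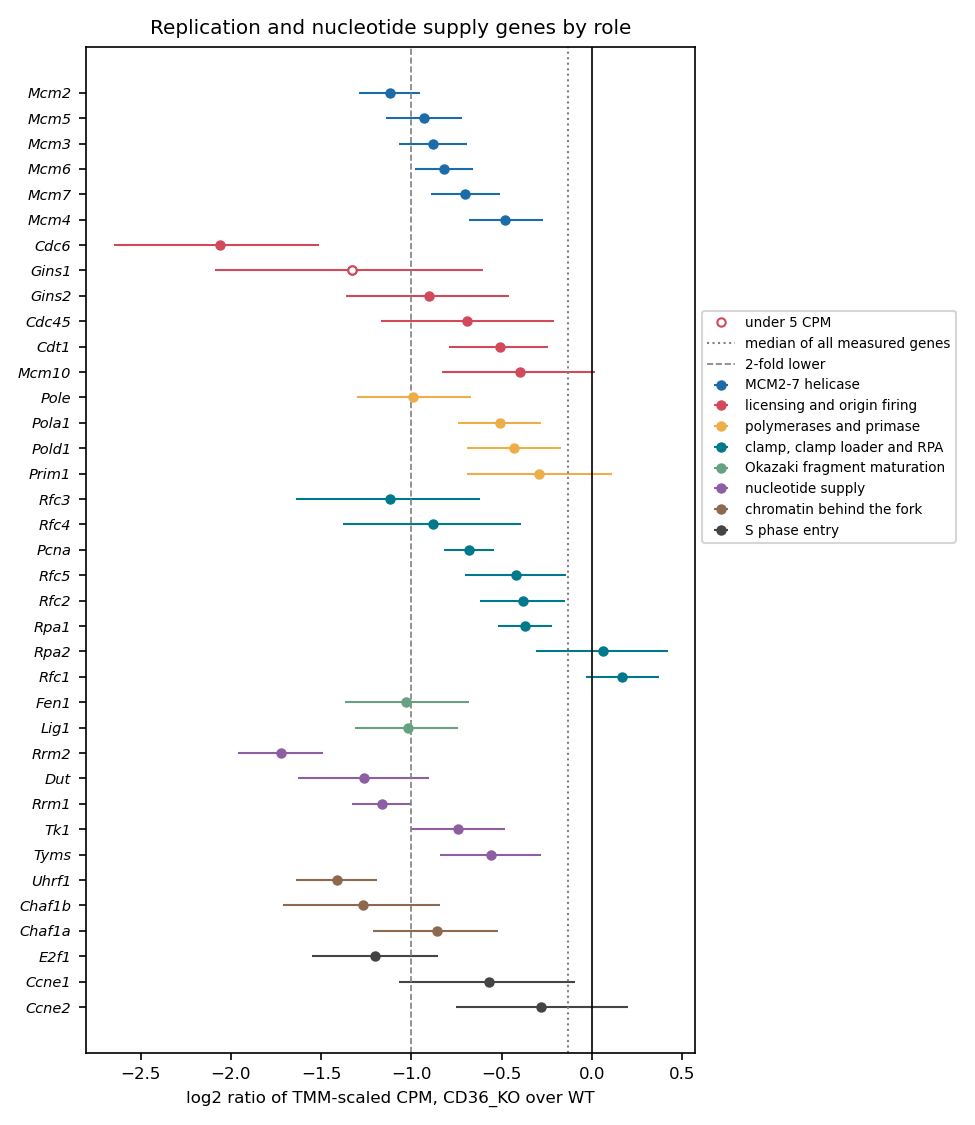
Log2 ratio of TMM-scaled CPM, CD36_KO over WT, for the 37 genes, grouped by role and sorted within each role. Bars are 95% counting intervals, the dotted line is the median of all measured genes (-0.13), the dashed line marks 2-fold lower, and the open circle is Gins1, which lay under 5 CPM. Cdc6 and Rrm2 lie farthest left, and Rfc1 and Rpa2 lie right of 0. On the log2(TPM + 1) scale 15 of the 36 measured genes were positive.

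The promoters are shown first because the group is known for shared E2F control. RefSeq gives, on GRCm38.p6, windows of 300 bases (250 before and 50 from the start on) for 31 of the 37 genes. The E2F letters searched were TTTCCCGC, TTTGGCGC, TTTCGCGC and TTTGCCGC, on both strands, and a gene counted when any of its windows held one. They were found for 11 of 31 genes (35.5%), for 4.75% of 9002 measured genes with a window, and for 2.6% of all 27025 genes of the table. CCAAT, the letters bound by NF-Y, was found for 18 of 31 (58.1%), against 42.8% of measured genes and 41.1% of all genes. TTTGAA, the core of the CHR element known from genes of G2 and mitosis, was found for 3 of 31 (9.68%), against 14.5% and 20.2%. Other pathway genes held E2F letters in 24 of 94 (25.5%, interval 17.1 to 35.6), which overlaps the interval of the 37-gene group (19.2 to 54.6). In a list of mitosis genes E2F letters were found for 1 of 23 (4.35%), level with all measured genes, CCAAT for 82.6% and TTTGAA for 73.9%. A match of letters is a description of the window and not a bound site. Below, capitals mark the E2F letters in the windows of Cdc6, the gene with the lowest ratio, of Mcm6 and Mcm5, where matches on both strands overlap, and of Rfc1, the gene with the highest ratio, which holds none.
Cdc6, chr11:98907901-98908200, plus strand: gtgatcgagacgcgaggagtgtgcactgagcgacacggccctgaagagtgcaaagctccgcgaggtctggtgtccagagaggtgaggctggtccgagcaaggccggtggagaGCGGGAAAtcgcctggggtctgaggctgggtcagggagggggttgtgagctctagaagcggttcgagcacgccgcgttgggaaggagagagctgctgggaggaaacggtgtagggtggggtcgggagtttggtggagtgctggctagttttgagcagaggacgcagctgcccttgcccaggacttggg
Mcm6, chr1:128359656-128359955, minus strand: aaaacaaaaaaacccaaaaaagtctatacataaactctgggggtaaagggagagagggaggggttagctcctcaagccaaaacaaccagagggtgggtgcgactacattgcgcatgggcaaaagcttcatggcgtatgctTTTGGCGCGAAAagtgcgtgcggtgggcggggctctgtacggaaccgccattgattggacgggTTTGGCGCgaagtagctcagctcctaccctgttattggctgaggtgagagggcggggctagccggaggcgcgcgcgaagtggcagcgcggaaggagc
Mcm5, chr8:75109259-75109558, plus strand: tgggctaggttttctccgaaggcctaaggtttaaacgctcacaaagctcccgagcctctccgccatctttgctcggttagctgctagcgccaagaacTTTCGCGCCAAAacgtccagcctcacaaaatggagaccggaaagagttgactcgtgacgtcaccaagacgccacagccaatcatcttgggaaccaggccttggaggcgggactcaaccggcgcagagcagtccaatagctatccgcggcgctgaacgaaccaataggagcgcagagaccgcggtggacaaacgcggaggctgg
Rfc1, chr5:65335590-65335889, minus strand: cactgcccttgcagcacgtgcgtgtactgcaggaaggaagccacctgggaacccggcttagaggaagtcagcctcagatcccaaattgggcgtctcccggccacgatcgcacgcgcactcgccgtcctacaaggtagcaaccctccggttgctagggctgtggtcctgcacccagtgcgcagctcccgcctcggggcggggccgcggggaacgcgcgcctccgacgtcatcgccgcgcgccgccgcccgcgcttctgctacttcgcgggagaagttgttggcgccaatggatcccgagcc
The Cdc6 window held 1 match, 138 bases before the RefSeq start, and 0 CCAAT. This whole window lies inside the GENCODE span of Cdc6, which begins further upstream at 98907801, so the match is not before the GENCODE start. Mcm6 held 3, beginning 110, 106 and 47 bases before the start, the first overlapping the next, with CCAAT at 57 and 14 bases. Mcm5 held 2 overlapping matches at 153 and 149 bases, and CCAAT at 77 and 22 bases before the RefSeq start and once after it. The whole Mcm5 window lies upstream of the GENCODE start of the gene, at 75109569. Rfc1 held 0 E2F matches and 2 CCAAT. Measured genes of the group with E2F letters had a median log2 ratio of -0.88 (n = 11, -2.06 to -0.43) and those without a median of -0.71 (n = 20, -1.72 to 0.17), so the ranges overlapped over most of their length. Rrm2, the second lowest gene, held no E2F letters in this window.

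With TMM scaling the helicase subunits Mcm2 to Mcm7 were all negative (4 of 6 in log2(TPM + 1)), with 1 of 6 (16.7%) at least 2-fold lower, Mcm2, and 0 of 6 with total counts (Mcm2 -0.92). Counts by role, here and below, stand beside 10.8% of all measured genes called lower. Lanes without overlap stand beside 33.3% of all measured genes with every CD36_KO lane below every WT lane. Mcm2 (GRCm38 chromosome 6, 88883474 to 88898780) stood at 33.8, 38.2, 40.8 and 38.6 CPM in the CD36_KO lanes and at 81.3, 87.5, 78.3 and 81.8 CPM in the WT lanes. Its log2 ratio was -1.12 (interval -1.29 to -0.95), from 420 and 773 counts. Every CD36_KO lane lay below every WT lane. Mcm4, the least shifted subunit, stood at 39.0, 36.3, 29.3 and 29.1 CPM in CD36_KO and at 54.0, 43.7, 45.2 and 43.2 CPM in WT, a log2 ratio of -0.48 (-0.68 to -0.27). These lanes did not overlap either, although the interval of Mcm4 does not reach that of Mcm2, so the subunits of the ring differed among themselves beyond counting error. Mcm3, Mcm5, Mcm6 and Mcm7 lay between, at -0.88, -0.93, -0.82 and -0.70. In log2(TPM + 1), Mcm4 (0.02) and Mcm7 (0.15) were positive and the other subunits negative, and all 6 lay below the median of all measured genes. In TPM, a per-length level, the subunits kept within a narrow band: from 6.57 (Mcm4) to 17.2 (Mcm7) in CD36_KO, a 2.62-fold span, and from 6.44 (Mcm4) to 15.4 (Mcm7) in WT, a 2.39-fold span. Mcm7 overlaps Cops6 and Ap4m1 on the opposite strand.

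Among the licensing and firing factors Cdc6 stood apart. This ATPase, which brings the helicase to the origin (chromosome 11, 98907801 to 98923940), had 2.5, 3.27, 2.5 and 4.36 CPM in the CD36_KO lanes and 11.8, 14.6, 12.7 and 13.7 CPM in the WT lanes. Its log2 ratio was -2.06 (-2.65 to -1.51), the lowest of the 36 measured genes, from 35 and 124 counts, which is 23.9% of the WT level. With 3.154 CPM in CD36_KO and 13.18 CPM in WT, Cdc6 passed the 5 CPM filter only through the library where it was high. It was one of only 2 members that passed 2-fold on the log2(TPM + 1) scale, at -1.08. Cdt1, its partner in loading, had 209 and 253 counts, a log2 ratio of -0.51 (-0.79 to -0.24), and overlapping lanes. Mcm10, a scaffold of the starting fork, stood at 8.96, 8.42, 7.58 and 7.63 CPM in CD36_KO and at 8.86, 12.5, 10.6 and 11.1 CPM in WT. Its lanes overlapped, and the interval of its log2 ratio (-0.40, -0.83 to 0.02) included 0. Cdc45 (-0.69) and the GINS subunit gene Gins2 (-0.90) lay between with overlapping lanes. In log2(TPM + 1), Cdt1 (0.21), Mcm10 (0.27) and Gins2 (0.07) were positive. Gins1, another GINS subunit, was the 1 gene under 5 CPM, with 24 and 51 counts. Cdc45 overlaps Ufd1, and Gins2 overlaps Gse1, on opposite strands, and Cdt1 overlaps Gm20388 on its own strand.

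The polymerases and primase were shifted less, with 0 of 4 at least 2-fold lower and a median of -0.47. Pole, the catalytic subunit of the leading-strand polymerase, stood at 15.5, 13.1, 11.7 and 9 CPM in CD36_KO and at 27.7, 19.9, 25.4 and 24.7 CPM in WT. Its log2 ratio of -0.99 (-1.30 to -0.67) fell just short of the rule, and its lanes did not overlap. Prim1, the catalytic subunit of primase, stood at 9.11, 9.60, 9.70 and 9.99 CPM in CD36_KO and at 15.2, 9.67, 9.70 and 12.5 CPM in WT. These lanes overlapped, and the interval of its log2 ratio (-0.29, -0.69 to 0.11) included 0. Pola1, which extends the primers, and Pold1, the lagging-strand polymerase, had log2 ratios of -0.51 and -0.43. Pola1, Prim1 and Pold1 turned positive on the log2(TPM + 1) scale, at 0.24, 0.22 and 0.59, and Pold1 lay above the median of all measured genes there. For Pold1 this rests partly on few reads: Pold1-202, typed retained intron, gave 1.67 TPM in CD36_KO from 7 counts. Its main coding transcript, Pold1-201, stood at 2.25 TPM in CD36_KO and 3.6 TPM in WT.

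The clamp and its partners held the most abundant gene and, with TMM scaling, the only positive ones, whereas 10 genes of other roles were also positive in log2(TPM + 1). Pcna, the sliding clamp (chromosome 2, 132249162 to 132253314), stood at 68.3, 73.8, 65.3 and 66.9 CPM in CD36_KO and at 112, 108, 113 and 106 CPM in WT. The lanes lay far apart, and the log2 ratio was -0.68 (-0.82 to -0.54), from 761 and 1034 counts. In TPM it ranked first of the 37 genes in both libraries, at 41.7 ± 2.5 in CD36_KO and 41.2 ± 1.17 in WT (SD over 4 lanes), levels that differ by less than the spread between lanes. Measured from the median of all genes, Pcna stood at -0.55 with TMM scaling and -0.35 with TPM. Rfc3, a small subunit of the clamp loader, was the 1 of 8 genes (12.5%, against 10.8% of all measured genes) at least 2-fold lower. It stood at 5.01, 4.72, 3.93 and 5.09 CPM in CD36_KO and at 9.7, 9, 9.72 and 12.4 CPM in WT (log2 ratio -1.12, -1.64 to -0.62), from 52 and 96 counts, and its lanes did not overlap. Like Cdc6, Rfc3 passed the 5 CPM filter only through WT, with 4.686 CPM in CD36_KO and 10.21 CPM in WT. It no longer passed 2-fold without WT lane 4, with total counts (-0.93) or after centring by length decile. The large subunit gene Rfc1 stood at 52.9, 42.9, 41.5 and 39.4 CPM in CD36_KO and 36.0, 38.8, 39.9 and 42.5 CPM in WT. Its lanes overlapped, and the interval of its log2 ratio (0.17, -0.03 to 0.37) included 0 but lay above that of Rfc3. Rfc2, Rfc4 and Rfc5 had log2 ratios of -0.38, -0.88 and -0.42. Of the subunits of RPA, which coats single-stranded DNA, Rpa1 had -0.37 and Rpa2 0.06 (-0.31 to 0.42). In log2(TPM + 1), Rfc5 (0.53), Rpa1 (0.30), Rpa2 (0.52), Rfc1 (0.46) and Pcna (0.02) were positive. Rfc2, Rfc4 and Rfc5 overlap Lat2, Eif4a2 and Wsb2 on the opposite strand.

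The enzymes that finish Okazaki fragments just passed 2-fold. Fen1, the flap nuclease, stood at 9.55, 12.4, 8.77 and 10 CPM in CD36_KO and at 19.4, 23.0, 19.9 and 20.7 CPM in WT, a log2 ratio of -1.03 (-1.37 to -0.68). Lig1, the ligase that seals the nick, stood at 13.2, 14.5, 15.0 and 16.7 CPM in CD36_KO and at 30.8, 30.9, 28.7 and 30.4 CPM in WT, a log2 ratio of -1.02 (-1.31 to -0.74). In neither did the lanes overlap. Both values lie at the threshold, and with total counts they were -0.83 and -0.82 and no longer passed. In log2(TPM + 1) they were -0.35 for Fen1 and -0.39 for Lig1. Leaving out 1 lane at a time also ended the call, for Fen1 in 6 of 8 such cases and for Lig1 in 5 of 8. Tmem258 overlaps Fen1, and Zswim9 overlaps Lig1, on opposite strands.

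Nucleotide supply was one of the most shifted roles, with 3 of 5 genes at least 2-fold lower and a median of -1.16. Rrm2, the S phase subunit of ribonucleotide reductase (chromosome 12, 24708241 to 24714146), stood at 19.0, 18.2, 13.2 and 21.8 CPM in CD36_KO and at 61.2, 60.9, 52.2 and 63.5 CPM in WT. Its log2 ratio was -1.72 (-1.96 to -1.49), and the highest CD36_KO lane lay far below the lowest WT lane. The large subunit gene Rrm1 had 455 and 864 counts and a log2 ratio of -1.16 (-1.33 to -1), an interval that does not reach that of Rrm2. In TPM, Rrm2 stood at 7.08 and Rrm1 at 10.5 in CD36_KO, against 15.6 and 13.4 in WT, so the order of the subunits differed between the libraries, although the WT levels lay within about 1 SD over lanes of each other (2.67 and 1.89). Dut, which removes dUTP so that uracil stays out of DNA, had 96 and 195 counts and a log2 ratio of -1.26 (-1.63 to -0.90). The calls of Rrm1 with total counts (-0.97) and of Dut after centring by length decile were lost. Tyms, which makes thymidylate, was the least shifted, at 19.2, 18, 16.6 and 14.9 CPM in CD36_KO and 25.2, 21.0, 26.9 and 27.6 CPM in WT (-0.56, -0.84 to -0.28). Its lanes did not overlap. Tk1, the salvage kinase for thymidine, had a log2 ratio of -0.74 (-1 to -0.48). All 5 genes were negative on the log2(TPM + 1) scale as well, from -1.03 (Rrm2) to -0.22 (Tk1). Tk1 overlaps Afmid on the opposite strand.

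The chromatin genes had a median of -1.27, and 2 of 3 passed 2-fold. Uhrf1, which carries DNA methylation over to the new strand (chromosome 17, 56303321 to 56323486), stood at 20, 20.4, 22.5 and 21.4 CPM in CD36_KO and at 61.2, 51.0, 57.0 and 55.2 CPM in WT. Its log2 ratio was -1.41 (-1.64 to -1.19), with lanes far apart. Of the subunits of CAF-1, which places histones on new DNA, Chaf1b had -1.27 (-1.71 to -0.84). Chaf1a stood at 12.2, 8.04, 11.7 and 11.5 CPM in CD36_KO and at 16.6, 19.2, 24.8 and 18 CPM in WT, with no overlap and a log2 ratio of -0.86 (-1.21 to -0.52). All 3 were negative on the log2(TPM + 1) scale, from -0.83 (Uhrf1) to -0.34 (Chaf1a).

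The genes of S phase entry split. E2f1, the activating E2F factor, stood at 9.27, 9.10, 9.82 and 10.4 CPM in CD36_KO and at 15.4, 23.3, 23.2 and 26.5 CPM in WT, a log2 ratio of -1.20 (-1.55 to -0.85) with no overlap. Ccne2, a cyclin that activates Cdk2, stood at 7.07, 6.18, 6.30 and 8.36 CPM in CD36_KO and at 8.32, 9.64, 8.58 and 7.22 CPM in WT. These lanes overlapped, and its interval (-0.28, -0.75 to 0.20) included 0. Its sister Ccne1 had 65 and 82 counts (-0.57, -1.07 to -0.09). Both cyclins turned positive on the log2(TPM + 1) scale, Ccne1 at 0.50 and Ccne2 at 0.93, while E2f1 stayed at -0.50. These TPM values rest partly on few reads of non-coding transcripts. Ccne2-206, typed lncRNA, gave 2.07 TPM from 9.2 counts in CD36_KO and 0.33 TPM from 2 counts in WT. The Ccne2 coding transcript with most counts, Ccne2-202, had nearly equal counts (49.8 in CD36_KO and 49.7 in WT), at 1.1 and 0.897 TPM. That of Ccne1 was lower in CD36_KO (Ccne1-201, 1.64 and 2.06 TPM). Ccne2 shares its locus with Ints8 on the opposite strand. The strand setting of the libraries is not recorded in the labels or files, so reads of the 14 genes that have such a partner cannot be told from those of the partner where transcripts overlap.

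**Figure D2:**
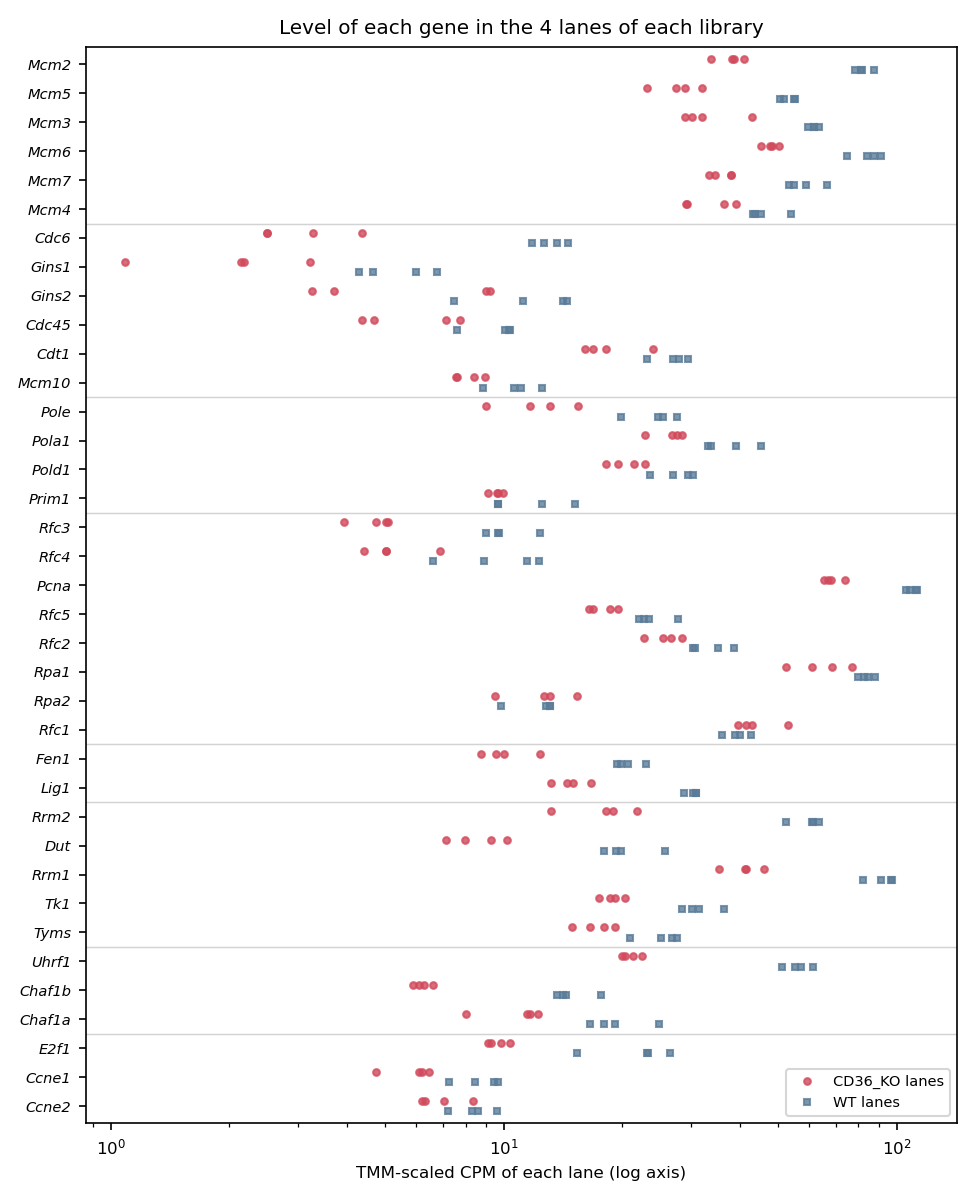
TMM-scaled CPM on a log axis for the 37 genes in the 4 CD36_KO lanes (circles) and the 4 WT lanes (squares), with lines between the roles. For Rrm2 the lanes lie at 13.2 to 21.8 CPM in CD36_KO and 52.2 to 63.5 CPM in WT, whereas for Rfc1 and Ccne2 they overlap. On the log2(TPM + 1) scale 15 of the 36 measured genes were higher in CD36_KO.

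Beyond these 37 genes the rest of the pathway was shifted less. Of 118 other genes in 4 lists, 113 were measured, of which 15 (13.3%) were at least 2-fold lower and 0 higher, with a median of -0.37. These lists were written with earlier results of these data known, and the difference from the 37 genes was not tested. Other replication machinery, such as ORC, the accessory polymerase subunits and the fork protection genes, had 3 of 38 lower and a median of -0.26. The 3 were Gmnn, the inhibitor of Cdt1 (-1.47, -2.03 to -0.92), the histone chaperone gene Asf1b (-1.32) and Pold2, a subunit of polymerase delta (-1.03). Other nucleotide supply had 3 of 31 lower and a median of -0.42. They included the CTP synthase gene Ctps (-1.42) and the diphosphate kinase gene Nme1 (-1.01). Pold2 and Nme1 lie at the threshold, and with total counts they were -0.83 and -0.81 and no longer passed. The genes called lower made up 7.89% of the measured machinery list and 9.68% of the nucleotide list, against 10.8% of all measured genes. In log2(TPM + 1), the medians of these lists were 0.37 and 0.26, which is level with the median of all measured genes for the machinery and 0.10 below it for nucleotide supply.

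Regulators of the pathway held single genes that were far lower. E2F, RB and G1-S control had 5 of 25 lower (20%, against 10.8% of all measured genes) and a median of -0.22. Cdk2, the kinase partner of cyclin E, had 476 and 1635 counts (-2.02, -2.17 to -1.87), Ccna2, the S phase cyclin, 185 and 488 (-1.64), and Cdkn1a, the inhibitor p21, 331 and 767 (-1.45). In the list of replication checkpoint and fork repair genes 4 of 19 (21.1%) were lower, with a median of -0.49. Brca1 led it at 197 and 651 counts (-1.96, -2.20 to -1.73), followed by the fork repair gene Fancd2 (-1.70) and Wee1, the kinase that restrains Cdk1 (-1.59). Their medians on the log2(TPM + 1) scale were 0.20 and 0.24, both below the 0.37 of all measured genes. Mitosis genes were the most shifted of the lists, with 17 of 25 (68%) lower, 0 higher and a median of -1.37 (-0.58 on the log2(TPM + 1) scale). Aurkb, a kinase of the chromosomal passenger complex, led them at -2.16, followed by Ube2c, the ubiquitin-conjugating enzyme of the anaphase-promoting complex (-1.86), and Ccnb1, the mitotic cyclin (-1.78). Beside these, the medians of the markers were 1.85 for the CD8 T cell list, -2.26 for melanoma and -0.39 for macrophages and monocytes.

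**Figure D3:**
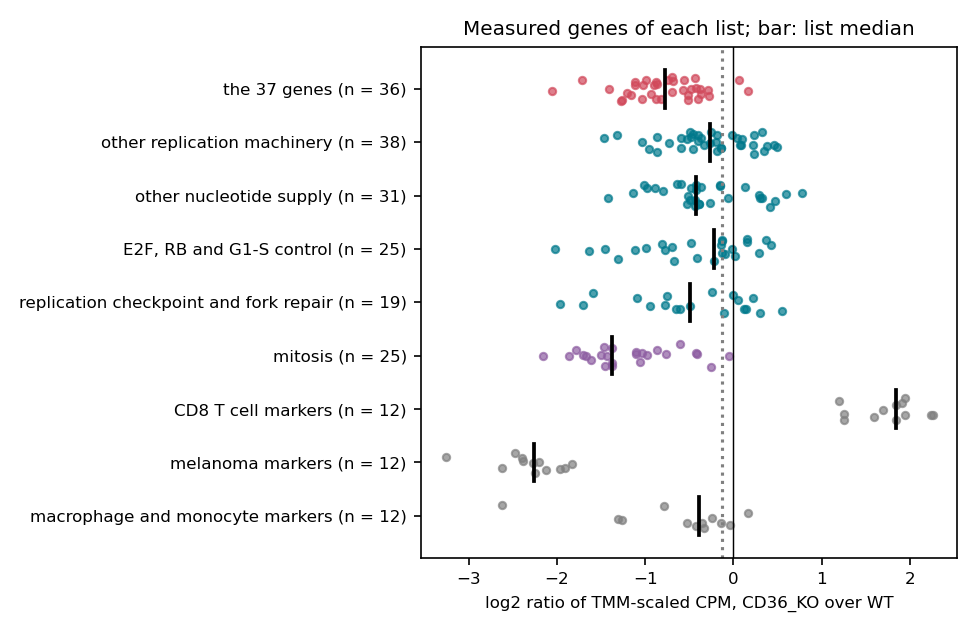
Log2 ratio of TMM-scaled CPM, CD36_KO over WT, of each measured gene (points, with vertical jitter) in the 37-gene group, 5 further lists and 3 marker lists; bars are list medians and the dotted line is the median of all measured genes (-0.13). The 37-gene group has a median of -0.78, between other replication machinery (-0.26) and mitosis (-1.37). On the log2(TPM + 1) scale the medians of the 4 lists between the group and mitosis turn positive, as does that of macrophages and monocytes (0.10).

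The transcripts to which reads were assigned also differed. The files type each transcript, and the share of counts on transcripts typed protein-coding was a readout on which the genes were not chosen. Over the 37 genes it was 80.5%, 83.2%, 84.5% and 84.0% in the CD36_KO lanes and 89.1%, 88.5%, 88.9% and 89.2% in the WT lanes. No CD36_KO lane reached a WT lane. Summed over lanes the shares were 83% (exact binomial 95% interval 82.2 to 83.8) and 88.9% (88.4 to 89.5), a difference of -5.9 percentage points. Over all measured genes with a protein-coding transcript the means were 86% in CD36_KO and 88.4% in WT, so a smaller difference in the same direction ran through the libraries. Retained-intron transcripts took 13.8 ± 0.478% of the group's counts in CD36_KO and 9.46 ± 0.513% in WT (SD over 4 lanes), against 8.98% and 6.89% over measured genes.

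The difference was uneven among the genes. The protein-coding share was lower in CD36_KO for 25 of the 37 genes (67.6%), higher for 9 and equal for 3. Among 11032 measured genes this share was lower for 5688 (51.6%), higher for 3212 and equal for 2132, so ties were more common there. In 4 genes it was lower by at least 30 percentage points (10.8%, against 1.14% of measured genes). The measured genes were not matched to the group for number of annotated transcripts or for counts, so these shares are not like for like. For Tk1 it was 33.9%, 35.9%, 27.0% and 33.2% in the CD36_KO lanes and 58.4%, 61.3%, 68.6% and 65.4% in the WT lanes. For Pold1 it was 55.0%, 79.2%, 29.4% and 59.4% in CD36_KO and 94.1%, 90.8%, 89.7% and 97.9% in WT. In both the lanes were separate, though the CD36_KO lanes of Pold1 scattered widely. Cdc6 (56.5% and 88.3%) and Rfc3 (51.1% and 82.2%) rest on few reads, and their lanes ran from 0% to 100% and from 0% to 79.7% in CD36_KO. Counted on protein-coding transcripts alone, the log2 ratio of Tk1 was -1.54 and that of Pold1 -1.05, so that both passed 2-fold. The division of reads among overlapping isoforms is an estimate of the pseudoaligner and is less certain than the gene totals.

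**Figure D4:**
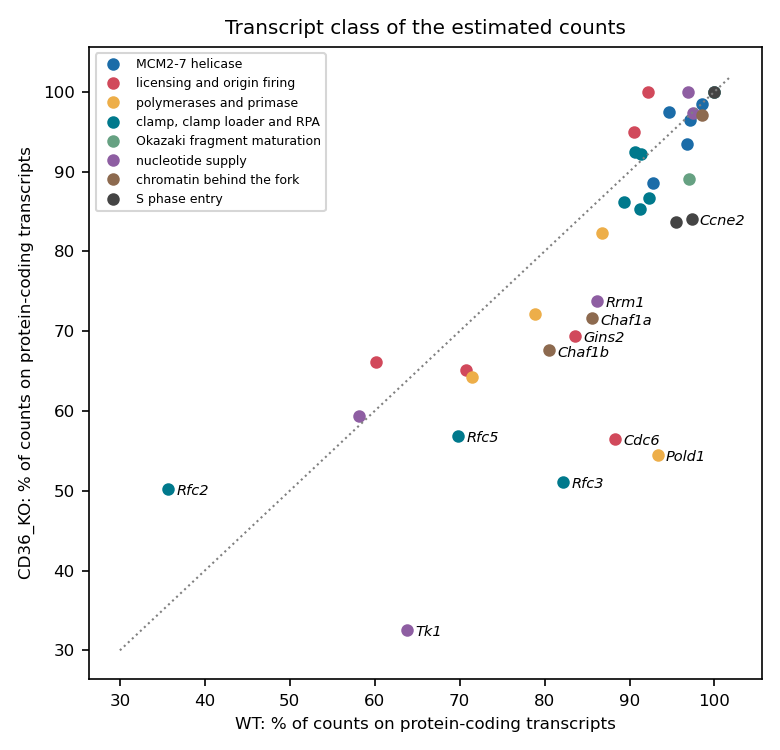
Share of each gene's estimated counts on protein-coding transcripts, with CD36_KO on the vertical axis and WT on the horizontal axis, both in percent and summed over 4 lanes. Points under the dotted line of equality have a lower share in CD36_KO, as 25 of the 37 genes (67.6%) and 51.6% of measured genes do, with Pold1 (54.5% in CD36_KO and 93.3% in WT) and Tk1 (32.6% and 63.8%) among the farthest from it.

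Cdc6 and Rrm2 stood lowest of the 36 genes both with TMM scaling and with TPM, though Cdc6 was counted as measured only through its level in WT. Taken from the median of all measured genes on each scale, Cdc6 stood at -1.93 with TMM scaling and -1.44 with TPM, Rrm2 at -1.59 and -1.40, Uhrf1 at -1.28 and -1.19, and Dut at -1.13 and -1.36. These 4 genes were the lowest in TPM and lay among the 6 lowest with TMM scaling. The genes above that median were Rfc1 and Rpa2 with TMM scaling, and with TPM also Pold1, Rfc5, Ccne1 and Ccne2.

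**Figure D5:**
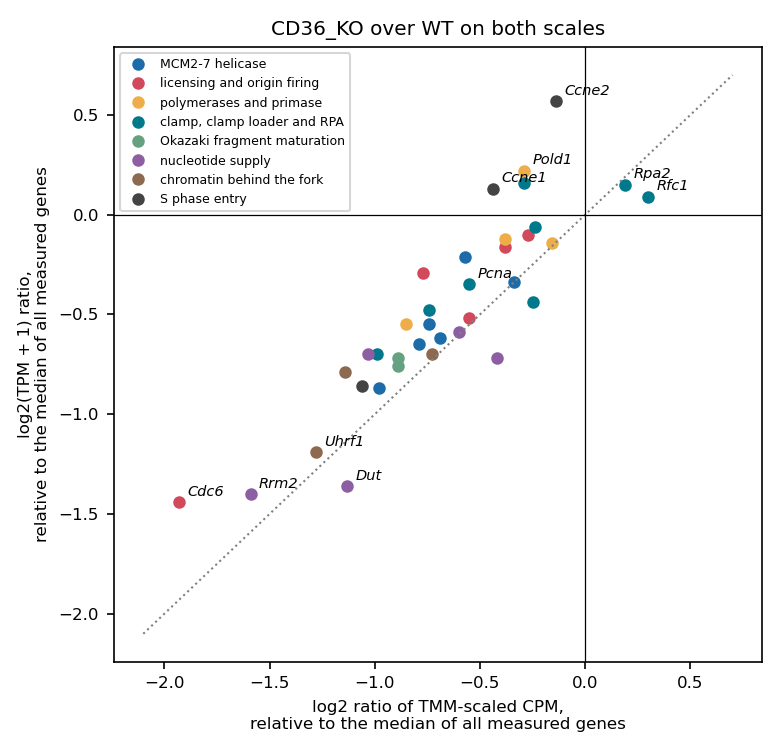
Each of the 36 measured genes by its log2 ratio of TMM-scaled CPM (horizontal) and its log2(TPM + 1) ratio (vertical), CD36_KO over WT, both taken from the all-gene median of that scale. Most genes lie below and left of 0 on both axes, and Ccne2 (-0.14 and 0.57) lies farthest above the dotted line of equality.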

How the data were processed

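RNA was measured in 8 samples, lanes 1 to 4 of 1 library per genotype by their titles. Lanes were summed, since their counts differed by little more than sampling noise (chi-square per degree of freedom 1.25 over the CD36_KO lanes and 1.3 over the WT lanes). Per the submitters' processing notes, kallisto and DESeq2 were used with genome build GRCm38.p6; no versions are named there. The authors' deposited estimated counts per transcript are not normalised. The deposited TPM values are scaled for effective length and lane total.

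Estimated counts of 142351 transcripts were summed to 55335 genes, then over lanes, and rounded. TMM factors from edgeR 4.0.16 (R 4.3.3) were 1.07 for CD36_KO and 0.934 for WT. Ratios are CD36_KO over WT with exact Clopper-Pearson 95% intervals of the counts, kept where the mean of both libraries reached 5 CPM. On simulated libraries (12173 genes) the rule called 96% of the genes given a 2.5-fold change, 2% of those given 1.5-fold and 0 unchanged genes. These libraries were drawn with Poisson counting noise alone, which the interval assumes. They hold no variation between animals or cell mixtures and so give no error rate for the real libraries. Gene coordinates are GENCODE M21, and promoters RefSeq. Genes given lane by lane are the lowest and highest of each role, Pcna and Rrm2; of each pathway list the 3 with the largest ratio are named, except 1 that is not reported here. The members, lists and rules were chosen with earlier results of these data known. Further marker lists were computed, and their values are given with the closing observations. Alternatives were other scalings, filters, folds, transcript sets, a length correction (ratios centred on the median of genes in the same decile of transcript length) and each lane left out.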

Additional observations from a re-analysis of the deposited data

Results flagged for a closer look

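Over the 4 lanes of a library, 1 lane stood apart from the others for 3 of 74 combinations of gene and library, where chance alone flags about 1 in 20. Chaf1a had 8.04 CPM in 1 CD36_KO lane, against 11.5 to 12.2 CPM in the others. Cdc45 had 7.59 CPM in 1 WT lane, against 10.1 to 10.4 CPM in the others, and Rpa2 had 9.86 CPM in 1 WT lane, against 12.8 to 13.1 CPM.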

How the results depend on the processing

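No paired analysis was possible because the results come from no test: lanes with the same number are lanes of 1 library per genotype. With DESeq2 size factors the same 11 genes of the 37 were at least 2-fold lower. That count was 6 with total counts, 2 with log2(TPM + 1), 3 with log2(TPM + 0.1), 5 at a mean of at least 20 CPM (20 genes left), 22 at 1.5-fold, 8 after centring by length decile (Dut, Fen1, Lig1 and Rfc3 lost, Pole gained) and 13 on protein-coding transcripts (Fen1 and Lig1 lost, Gins1, Gins2, Pold1 and Tk1 gained); 1 gene, Ccne2, was higher with log2(TPM + 0.1). The median of the measured members of the group was -0.58 with total counts, -0.17 and -0.21 with the TPM scales, -0.69 at 20 CPM and -0.52 after centring by length decile. Relative to all measured genes it was -0.54 with log2(TPM + 1), -0.79 with no filter, -0.53 at 20 CPM, -0.73 on protein-coding transcripts and -0.52 with the length correction. Among all genes, lower and higher calls numbered 329 and 1501 with log2(TPM + 1), 490 and 2291 with log2(TPM + 0.1), 2407 and 2330 with no filter, 679 and 344 at 20 CPM, and 2826 and 1643 at 1.5-fold. Pathway genes outside the 37 that were lower and higher numbered 3 and 5, and 4 and 11, on the TPM scales and 36 and 2 at 1.5-fold, and 6 were lower at 20 CPM. With 1 lane left out, 8 to 13 of the 37 genes were lower and 0 higher, and Fen1 and Lig1 were the ones most often lost. Their median then ran from -0.83 to -0.65, or from -0.71 to -0.58 relative to all genes, and the difference in protein-coding share from -6.4 to -5 points. Other pathway genes that were lower numbered 12 to 18, and all genes 1178 to 1324 lower and 795 to 878 higher. With the 100 bases before the start as the window, E2F letters were found for 6.45% of the 31 genes, against 11.7% of 94 other pathway genes and 1.73% of measured genes. The cause of these shifts was not tested, and counting depth limits genes with under 100 counts in a library, such as Cdc6 and Rfc3, most.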

Other observations

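Markers of further cell types moved with the libraries too, and their part in the results was not tested. Among B cell markers 7 of 7 measured genes were at least 2-fold higher in CD36_KO (sums of 98.1 TPM in CD36_KO and 18.5 TPM in WT), among hepatocyte markers 7 of 7 (278 and 27.8 TPM), among erythroid markers 5 of 5 (1674 and 359 TPM), among neutrophil markers 4 of 5 (299 and 49.3 TPM), among lung epithelium markers 3 of 5 (254 and 45.8 TPM) and among NK cell markers 2 of 2 (14.3 and 3.9 TPM). Fibroblast markers were lower in 5 of 6 (47.8 and 123 TPM). Dendritic cell and endothelial markers had 0 of 5 genes in either direction, with sums of 13.9 and 57.3 TPM in CD36_KO and 12.7 and 29.3 TPM in WT. The 37 replication genes summed to 282 ± 11.1 TPM in CD36_KO and 306 ± 7.21 TPM in WT (SD over 4 lanes), a ratio of 0.922, and the mitosis list to 112 and 169 TPM. By role the summed TPM ratio ran from 0.591 for the chromatin genes and 0.648 for nucleotide supply to 1.26 for the polymerases and primase and 1.3 for S phase entry. These ratios are to be read beside the median of all measured genes, which was itself 0.37 on the log2(TPM + 1) scale. A summed ratio of 1 therefore lies below the typical gene.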
